A study of Drosophila melanogaster with 2 samples.

Results

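Among 10 genes that pattern the dorsoventral axis and the mesoderm of the Drosophila melanogaster embryo, 4 (dpp, sog, brk and tin) had Pumilio ChIP-seq regions of the authors' reproducibility-thresholded list assigned to them, where 20.5% of all protein-coding genes did. Of those 9 regions 8 lay in introns, against 32.7% of all such regions, and 4 of the 8 were in introns of the genes that span brk rather than of the patterning gene itself. The genes, 10 of the 13968 protein-coding genes annotated on the 7 chromosome arms, were dpp, tld, sog, zen, pnr, brk, rho, twi, sna and tin. They were chosen by their role, but with earlier results of these data known. A region was assigned to a gene when its summit lay inside the gene or had one of the gene's starts as the nearest of all annotated starts. The libraries were 2 biological replicates, numbered 2 and 3, of whole embryos of the Pum-MiMIC-GFP strain, males and females together, collected over 0 to 24 h. In this line an eGFP exon inserted in an intron of pum makes a Pum-GFP fusion from the gene itself, and the precipitation used an antibody to GFP. Both libraries carried the fusion and formed 1 group, so no conditions were compared and no test was made. Since all tissues and stages were mixed, a region occupied in few cells and a region occupied weakly in many cannot be told apart.

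Pumilio is an RNA-binding protein best known for repressing the translation of maternal mRNAs such as hunchback. The dorsoventral axis is set by a ventral-to-dorsal gradient of the transcription factor Dorsal in nuclei. High Dorsal turns on twi and sna in the presumptive mesoderm, lower levels turn on rho, sog and brk in the neuroectoderm, and Dorsal represses dpp, tld and zen, which are left to the dorsal side. There a second gradient, of the BMP ligand Dpp, patterns the dorsal ectoderm and amnioserosa, and tin later marks the dorsal mesoderm and the heart.

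The strongest region of each of the 4 genes is shown first, as the reference sequence on the plus strand of dm6, because it is the highest pooled value of its gene. Each window holds 201 bases centred on the summit, with the 11 bases around the summit in capitals. The sog window is chrX:15622953-15623153, that of dpp chr2L:2433540-2433740, that of brk chrX:7307026-7307226 and that of tin chr3R:21378697-21378897. The GC content was 37.3% for sog, 34.8% for dpp, 31.8% for brk and 36.8% for tin. All optimal summits had a median of 36.3% and those in introns 35.3%.
sog intron: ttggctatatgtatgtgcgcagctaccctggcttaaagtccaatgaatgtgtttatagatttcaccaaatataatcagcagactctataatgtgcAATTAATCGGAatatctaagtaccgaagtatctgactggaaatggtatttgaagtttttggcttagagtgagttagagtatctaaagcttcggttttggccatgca
dpp intron: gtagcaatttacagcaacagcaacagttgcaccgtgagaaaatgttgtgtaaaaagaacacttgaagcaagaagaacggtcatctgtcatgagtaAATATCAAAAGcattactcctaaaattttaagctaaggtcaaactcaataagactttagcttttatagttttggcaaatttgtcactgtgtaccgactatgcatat
brk upstream region: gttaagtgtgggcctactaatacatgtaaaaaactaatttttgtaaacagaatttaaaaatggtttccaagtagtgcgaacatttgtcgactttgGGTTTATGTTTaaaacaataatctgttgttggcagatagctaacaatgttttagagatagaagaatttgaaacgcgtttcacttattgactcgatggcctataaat
tin promoter: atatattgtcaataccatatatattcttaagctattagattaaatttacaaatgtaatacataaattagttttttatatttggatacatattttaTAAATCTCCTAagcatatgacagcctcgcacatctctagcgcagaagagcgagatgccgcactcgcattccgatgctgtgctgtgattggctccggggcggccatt

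The values came from peak lists. Each region carries a signal given by the authors, on a scale that the labels do not state, and rank 1 is the strongest region of a list. The list thresholded on reproducibility, called optimal here, held the 3970 strongest rows of the pooled list, with signals from 80.4 to 2369 and a median of 134. Where summits stood less than 250 bp apart only the strongest was kept, which left 3816. The pooled list of 26275 rows went down to a signal of 23.2, and each replicate had 30000 rows. Signals are not comparable between lists, so replicate signals are given with ranks, and their ratios beside the median ratio of all matched summits. The number of reads behind a region is unknown, and no precipitation without the tagged protein was analysed here.

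Of the 10 genes, 1 (tin) had an optimal summit within 500 bp of a start, where 18.6% of all protein-coding genes did. An optimal summit lay inside 2 of the 10, dpp and sog, against 10.2% of protein-coding genes. A start of 4 of the 10 was the nearest one to an optimal summit, against 18.8%, and the same 4 genes had an assigned summit by either route, against 20.5%. In the pooled list, which also holds weak regions, 9 of the 10 had at least 1 row, against 66.9% of protein-coding genes. The exception was tld. With 10 genes, each gene is worth 10% of the set, and the promoter share lay below that of all genes while the share with a nearest start lay above it.

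**Figure D1:**
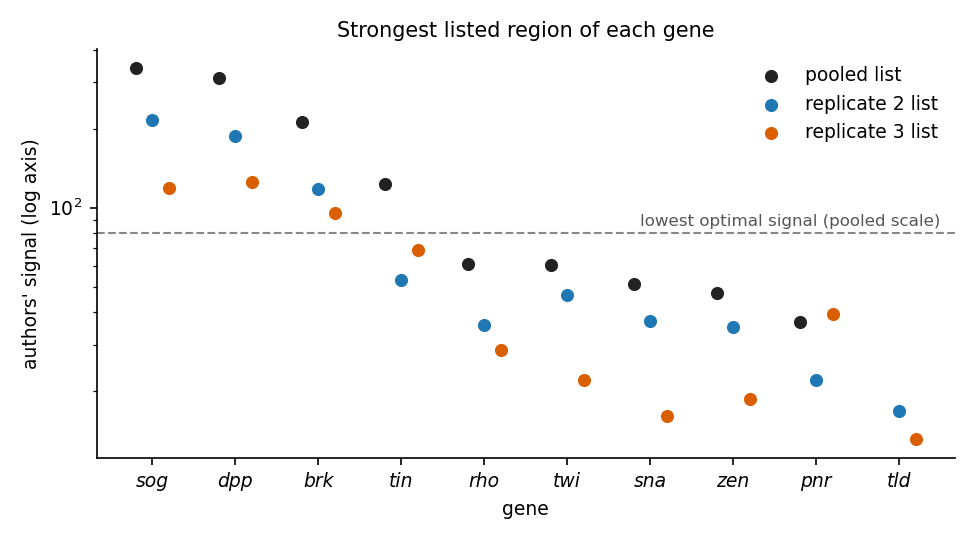
Authors' signal (log axis) of the strongest region assigned to each gene in the pooled list and in each replicate's list; the dashed line is the lowest signal of the optimal list, on the pooled scale. The 4 genes sog, dpp, brk and tin lie above the line with pooled signals of 341, 312, 212 and 123, the next gene is rho at 61.1, and tld has no pooled point.

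Among the genes of BMP signalling, the ligand and its antagonist carried the strongest regions of the set and the protease had none in the pooled list. dpp (FBgn0000490, 2L 2428372 to 2459823, plus strand, 4 starts) encodes the Drosophila ligand related to BMP2 and BMP4. Its single optimal summit, at 2433640 in an intron and 5268 bp downstream of the nearest start, had a signal of 188 and rank 446 in replicate 2. In replicate 3 its signal was 125 at rank 519. In the pooled list it reached 312 at rank 473, so that 12.3% of optimal summits were stronger. This was the one high point of the locus: dpp had 10 pooled rows, and the next strongest, also intronic, had 42.8 at rank 8886. This weaker region ranked 11765 in replicate 2 and 10413 in replicate 3. A further optimal summit lay 1674 bp from a dpp start, with a signal of 92.0, but the start of lncRNA:CR44912 was nearer to it.

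sog (FBgn0003463, X 15603283 to 15633434, minus strand, 2 starts) encodes short gastrulation, the Chordin-like protein that binds Dpp and carries it dorsally. It had 3 optimal summits, all in its introns and all downstream of its inner start. The strongest, at 15623053 and 3487 bp downstream of that start, had a signal of 215 at rank 340 in replicate 2 and of 119 at rank 571 in replicate 3. Its pooled signal of 341 at rank 389 was the highest of any of the 10 genes. The summit at 15619429, 7111 bp downstream, had 103 at rank 1303 in replicate 2 and 67.6 at rank 1640 in replicate 3. Its pooled signal was 171 at rank 1374. The summit at 15615595, 10945 bp downstream, had 49.3 at rank 3479 in replicate 2 and 54.1 at rank 2362 in replicate 3. Its pooled signal was 104 at rank 2829. Pooled signal thus fell with distance from the start over the 3 summits. The promoter of the same gene was weaker than any of them, with a pooled signal of 48.2 at rank 7554, outside the optimal list. Among protein-coding genes, 1.87% had 3 or more optimal summits assigned.

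tld (FBgn0003719, 3R 24749731 to 24753510, plus strand) encodes Tolloid, the metalloprotease that cleaves Sog and frees Dpp. It had 0 rows in the optimal and pooled lists. Replicate 2 had 3 rows, of which the strongest, in coding sequence, had a signal of 16.8 at rank 20148. Replicate 3 had 1 row, in an intron of tok 8038 bp upstream of the tld start, with 13.1 at rank 23123. Both values lay below the median signals of their lists, 19.3 in replicate 2 and 17.0 in replicate 3, and the closest optimal summit lay 19291 bp away.

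**Figure D2:**
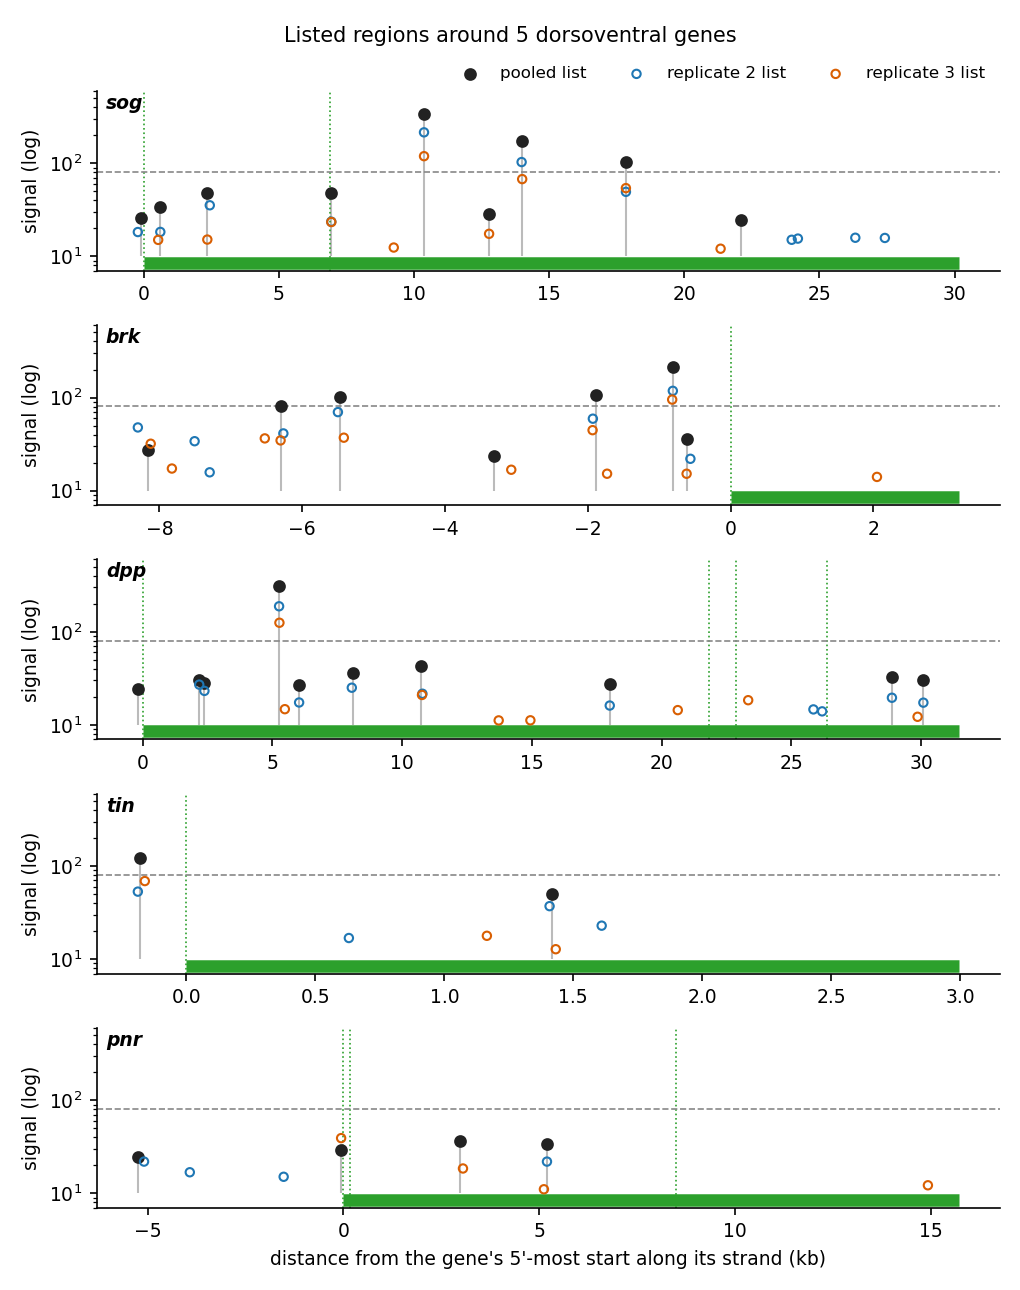
Regions assigned to sog, brk, dpp, tin and pnr by distance in kb from the 5′-most start of each gene along its strand, with the authors' signal on a log axis; filled points are pooled rows, open points are replicate rows, the green bar is the gene, dotted lines are starts, and the dashed line is the lowest optimal signal. The optimal regions of sog and dpp sit inside the gene, the 4 of brk all lie upstream, and that of tin lies 180 bp upstream of the start.

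All of the optimal summits of brk lay outside the gene, as did that of tin. brk (FBgn0024250, X 7307939 to 7311132, plus strand) encodes Brinker, the repressor of Dpp target genes. Its 4 optimal summits lay 813, 1891, 5472 and 6304 bp upstream of its start. They fell inside introns of CG1677 (FBgn0029941, X 7281089 to 7405797) and lncRNA:CR44357 (FBgn0265457, X 7166451 to 7405797). Both genes lie on the minus strand and span the brk locus. The nearest CG1677 start was 15440 bp or more from each summit, so the brk start was the closest. Among protein-coding genes, 0.895% had 4 or more optimal summits assigned.

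The summit nearest to brk, at 7307126, was also the strongest, with a signal of 118 at rank 1060 in replicate 2 and of 95.1 at rank 871 in replicate 3. Its pooled signal was 212 at rank 951. The next, at 7306048, had 59.3 at rank 2769 in replicate 2 and 44.6 at rank 3240 in replicate 3, with 106 in the pooled list. The other two had lower pooled signals. At 7302467 the signal was 69.7 at rank 2252 in replicate 2 but 37.0 at rank 4286 in replicate 3, and the pooled value was 100. At 7301635 it was 41.2 at rank 4330 in replicate 2, and in replicate 3 a row with 34.6 at rank 4735 stood within 250 bp of a stronger one. That last summit, with a pooled signal of 82.1, was the weakest assigned region inside the optimal list.

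The dorsal transcription factor genes zen and pnr had weak rows only. zen (FBgn0004053, 3R 6752864 to 6754194, minus strand) encodes the homeodomain protein that specifies the amnioserosa. Its strongest pooled row, intergenic and 2228 bp from the start, had a signal of 35.1 at rank 5245 in replicate 2 and of 12.0 at rank 26626 in replicate 3. Its pooled signal was 47.2 at rank 7764, and the promoter row had 26.7 at rank 20457. In replicate 3 the order was reversed, with 18.6 at rank 12775 at the promoter. Replicate 2 had no row within 100 bp of the pooled promoter summit. It had another promoter row, 99 bp from the start, with 18.3 at rank 16845. pnr (FBgn0003117, 3R 16026079 to 16041796, plus strand, 3 starts) encodes the GATA factor Pannier of the dorsal ectoderm and heart. Its promoter row was seen in 1 replicate: replicate 3 had a signal of 39.3 at rank 3906, 60 bp from a start, and replicate 2 had no matching row. The pooled value there was 29.1 at rank 17342, below the 36.7 at rank 11405 of an intronic row.

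The neuroectodermal gene rho had the highest pooled signal outside the optimal list, just above twi, whereas twi and sna exceeded it in replicate 2 and pnr in replicate 3. rho (FBgn0004635, 3L 1463811 to 1468944, plus strand) encodes Rhomboid, the intramembrane protease that releases the EGF receptor ligand Spitz. An intronic row 892 bp from the start had a signal of 35.5 at rank 5168 in replicate 2, 23.6 at rank 8533 in replicate 3 and 61.1 at rank 5577 in the pooled list. Its promoter row had 24.7 at rank 9057 in replicate 2, 28.7 at rank 6297 in replicate 3 and 50.7 in the pooled list. Both rows were thus present in both replicates, and both also lay within the span of Ptp61F. The weakest assigned row inside the optimal list had 82.1 and this strongest row outside had 61.1, on either side of the list's lowest signal of 80.4.

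The mesoderm genes twi and sna had no optimal summit, and tin had 1. sna (FBgn0003448, 2L 15476593 to 15478260, minus strand) encodes the zinc-finger repressor Snail. Its promoter row, 46 bp from the start, had a signal of 36.9 at rank 4931 in replicate 2 and of 16.04 at rank 16564 in replicate 3, with 51.2 at rank 6943 in the pooled list. twi (FBgn0003900, 2R 22985374 to 23048325, plus strand, 3 starts) encodes the bHLH activator Twist. It had 17 pooled rows, more than any other of the 10, but it also had the longest assigned sequence, 65.5 kb, over a span shared with CG42741. A twi start was the nearest start for 2 of the 17, and the others were nearer to starts of CG9896, CG42741 or CG9897. The strongest, intronic, stood 16734 bp from the nearest twi start but 3224 bp from a start of CG9896. It had 46.6 at rank 3726 in replicate 2 and 16.1 at rank 16449 in replicate 3, with 60.6 at rank 5636 in the pooled list. In both genes the strongest row therefore ranked far higher in replicate 2 than in replicate 3.

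tin (FBgn0004110, 3R 21378977 to 21381970, plus strand) encodes Tinman, the NK homeodomain protein needed for the heart and visceral muscle. Its optimal summit, at 21378797, lay 180 bp upstream of the start and was the one promoter summit of the set. The signal was 53.1 at rank 3181 in replicate 2 and 69.0 at rank 1579 in replicate 3. The pooled value was 123 at rank 2234, so that 57.3% of optimal summits were stronger. A second row, in coding sequence, had 50.3 in the pooled list and was ranked 4903 in replicate 2 and 23990 in replicate 3.

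**Figure D3:**
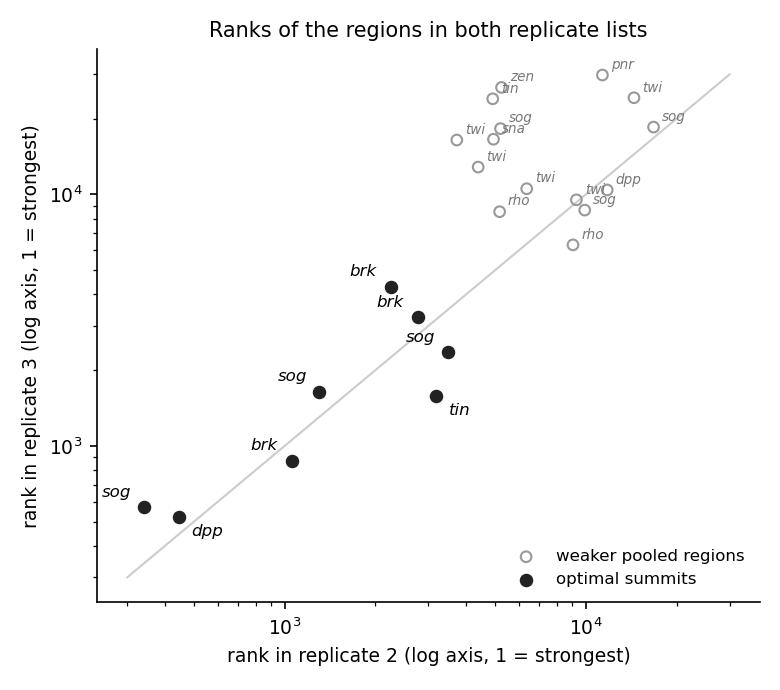
Rank in replicate 2 against rank in replicate 3 (log axes, 1 = strongest; the line marks equal ranks) for the assigned regions matched in both replicate lists. The 8 matched optimal summits rank between 340 and 3479 in replicate 2, and the 15 weaker regions rank 3726 or lower in replicate 2, with most of them ranked lower still in replicate 3.

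The replicates were read side by side over all assigned regions. Of the 9 optimal summits, 7 (77.8%) had a match within 100 bp among the 3816 strongest summits of both replicates, where 69.2% of all optimal summits did. The other two were the distal brk summits at 7302467 and 7301635. The signal in replicate 2 was 1.80 times that in replicate 3 at the strongest sog summit, 1.5 times at dpp, 1.24 times at the strongest brk summit and 0.770 times at tin. Over all 3502 matched optimal summits the median ratio was 1.34, with 10% below 0.775 and 10% above 2.21. The tin ratio thus lay just under the 10% point and the others lay within the range. Of the 45 weaker pooled summits of the 10 genes, 15 (33.3%) were found in both replicate lists, against 27.7% of all weaker pooled summits.

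By place, 8 of the 9 assigned optimal summits lay in introns, where 32.7% of all optimal summits did, and 1 lay at a promoter, against 51.8%. Only 4 of the 8 were in an intron of the patterning gene itself, 3 of sog and 1 of dpp, since those of brk were in introns of the genes that span it. The X chromosome held 7 of the 9, all of sog and brk, against 19.5% of all optimal summits and 27.2% of those in introns. These 7 summits come from 2 genes and are not independent of each other. The genes also have more sequence to collect summits than most. The bases nearest to a start of the gene or inside it had a median of 17.4 kb over the 10 genes and of 4.76 kb over all protein-coding genes. Per 100 kb of such sequence the 10 genes had 4.27 optimal summits and the arms other than Y had 2.85. The values were 24.6 for brk, 17.4 for tin, 9.50 for sog and 3.15 for dpp, and 0 for the other six genes.

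Sequence motifs of the factors that act on these genes were searched on both strands of the 201-base windows. Of the 9 windows, 3 held 1 match each and no matches overlapped. The dpp window had the Tinman motif TCAAGTG on the minus strand, read as CACTTGA on the plus strand, at positions -42 to -36 relative to the summit. The tin window had a match to GGGNNNNCC, the loose pattern used for Dorsal, with N any base. It read GGGGCGGCC from 89 to 97 bp after the summit, and binding by Dorsal was not tested. The brk window at 7302467 had the Twist E-box CACATG on the minus strand, at positions -42 to -37 relative to the summit. Over all optimal summits, 3.43% of windows held the Tinman motif, 8.28% the Dorsal motif and 8.18% the Twist E-box. The other six motifs were in 0 of the 9 windows. Their shares over all optimal summits were 0.786% for the Zelda motif CAGGTAG, 6.00% for the Snail E-box CAGGTG, 7.18% for the Brinker motif TGGCGNC and 3.17% for the GAGA motif GAGAGAG. The promoter motif DRE, TATCGATA, was in 4.51% of all optimal summits but 0.32% of those in introns. TGTANATA, the DNA letters of the RNA element that Pumilio binds, was in 9.17% of all and 10.4% of those in introns.

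The same question was put to 68 further genes of the pathway in 5 lists, also chosen with earlier results of these data known. An optimal summit lay within 500 bp of a start of 14 (20.6%), close to the 18.6% of all protein-coding genes. A start of 32 (47.1%) was nearest to an optimal summit, against 18.8%. The median length of nearest sequence was 13.7 kb for these genes. Of the 36 with any assigned summit, against 20.5% of protein-coding genes, 22 had none within 500 bp of a start of their own. Over all protein-coding genes, 2866 had an assigned summit and 2601 had one within 500 bp of a start. The relation of these shares to gene length was not tested.

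The counts are given list by list, a promoter here being that of the listed gene itself. Among all protein-coding genes, 20.5% had an assigned summit and 18.6% had one within 500 bp of a start. Each list holds few genes, and differences between lists were not tested. In the maternal Toll and Dorsal pathway, all 4 of 13 genes with an assigned summit had one at a promoter. They were cact, which encodes the inhibitor that keeps Dorsal in the cytoplasm (signal 459, rank 187), pll, Myd88 and tub. pll encodes the kinase Pelle (151, rank 1672, shared with a start of TfIIA-L), and Myd88 (91.9) and tub (88.7) encode adaptors. The cact summit was found among the strongest of both replicates, and those of pll, Myd88 and tub were not. Among 13 BMP genes, 7 had an assigned summit and 1 had one at a promoter, shn, which encodes a cofactor of Mad that represses brk (88.9, rank 3489). Among 10 dorsal ectoderm and amnioserosa genes, 3 had an assigned summit and 2 had one at a promoter, peb (242) and ush (126), which encodes the Pannier partner U-shaped.

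Neuroectoderm and EGF signalling genes had assigned summits in 9 of 11 cases and promoter summits in 2. These were spi, which encodes the ligand that Rhomboid releases (520, rank 148), and S, which encodes its trafficking partner Star (80.6, rank 3953, shared with a start of ast). In the mesoderm list, 13 of 21 genes had an assigned summit and 5 had one at a promoter. The 4 strongest were mthl1 (268, shared with SNRPG), T48 (112, shared with ro), the FGF receptor gene htl (104) and its adaptor stumps (102). mthl1 encodes a receptor for the Fog signal. The mthl1 and htl summits were found among the strongest of both replicates, and that of stumps was not. Thus promoter signals at the cytoplasmic inhibitor of Dorsal and at the EGF ligand exceeded the strongest signal of any of the 10 genes, 341 at sog.

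**Figure D4:**
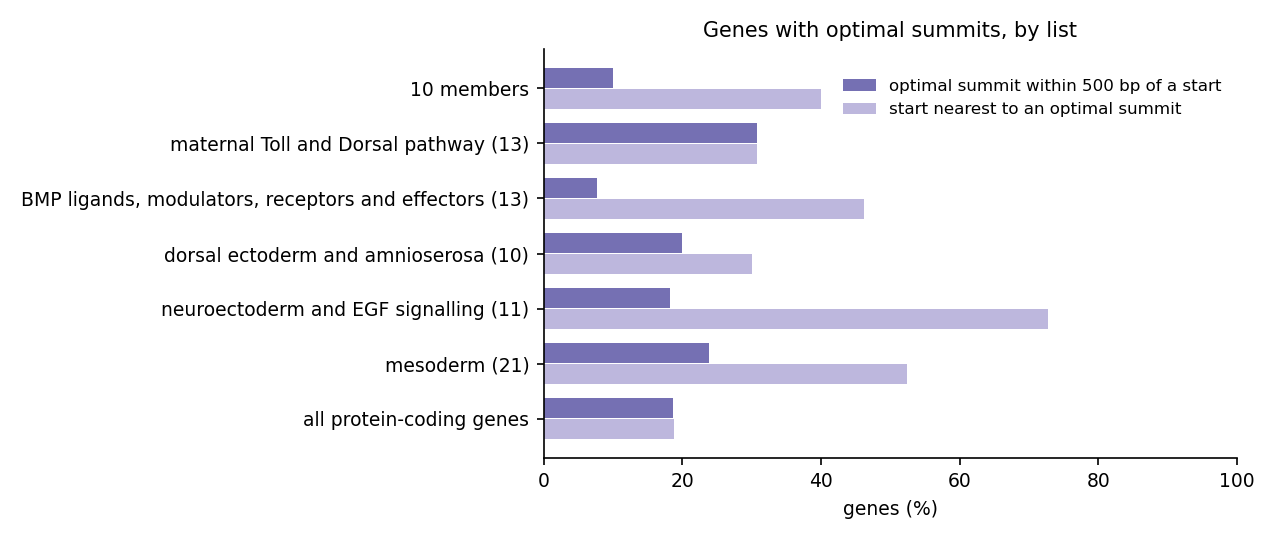
Share of genes (%) with an optimal summit within 500 bp of a start (dark bars) and with a start nearest to an optimal summit (light bars) in the 10 genes, in each wider list (number of genes in parentheses) and in all 13968 protein-coding genes. The dark bars run from 7.69% to 30.8% around the overall 18.6%, while every list's light bar, from 30% to 72.7%, is longer than the overall 18.8%.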

How the data were processed

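Peak lists on dm6 from 2 libraries of 1 group were used, 1 list per replicate, 1 pooled and 1 optimal. Per the labels, sonication gave fragments of 200 to 800 bp. The signal (column 7) and the −log10 of the q-value (column 9) are the authors' deposited values. As 97.5% of optimal rows shared the highest −log10 value, 3.89, signal was used for ranks. Each replicate list was derived from 1 alignment and 1 further file, and the optimal list from the 2 replicate lists and the pooled list, per the deposited listing of files. No source used here gives the caller, its settings or the threshold of reproducibility. Depth is unknown.

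Gene models were those of Ensembl release 115, without transposable elements, and sequences those of RefSeq's Release 6 assembly, whose arm lengths fit the coordinates. A summit less than 250 bp from a stronger one was left out. Each position was called promoter (up to 500 bp from a start) first, then 5′ UTR, 3′ UTR, coding, other exon, intron or intergenic. Replicate matches lay within 100 bp. Shares of all genes or summits stand beside each count, with no test. The members, lists and motifs were chosen with earlier results of these data known. All 10 members were named, with genes that span or start near their optimal summits and up to 4 genes per wider list with the strongest promoter summits. One wider symbol was matched through RefSeq synonyms. All 200 summits placed within 500 bp of a start in a simulated list were called at a promoter of their gene. The 500 bp window fixes that outcome in advance, and assignment by gene span or nearest start was not checked. Python 3.11.15, numpy 2.4.6, pandas 2.3.3 and matplotlib 3.10.9 were used.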

Additional observations from a re-analysis of the deposited data

How the results depend on the processing

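Of 59 recomputed values, 48 stayed within 1.5 times the value reported and 11 moved. The count of patterning genes with a promoter summit was 1. It was 0 with the stronger 50% of optimal summits and 2 with a promoter of 1000 bp, which took in brk. Taking the strongest summits of 1 library in place of the optimal list gave 2 without replicate 2, by adding pnr, and 1 without replicate 3. The 9 assigned summits became 4 with the stronger 50%, and 8 without replicate 2 or 10 without replicate 3, where a twi intron was added. Counting starts of protein-coding genes only gave 10, by adding a dpp summit. The share at promoters, 11.1%, was 22.2% with a promoter of 1000 bp, 0% with the stronger 50%, 25% without replicate 2 and 10% without replicate 3. Windows of 50 bp on either side held the Dorsal motif in 0 of 9 cases and windows of 150 bp in 3, with 1 each for the Brinker and GAGA motifs. No paired analysis was possible because both libraries belong to 1 group. With 2 libraries, no counts and no control precipitation in use, neither enrichment nor error of a single region can be given.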

Other observations

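Outside promoters, regions stronger than those of the 10 genes were found in other genes of the same pathways, named here after their values were seen. In introns, the highest value was that of ush, 2369 at rank 1, the strongest row of the optimal list. In introns too, aos, which encodes the secreted EGF receptor inhibitor Argos, reached 622 at rank 90. The zinc-finger gene zfh1, active in the mesoderm, reached 458 at rank 188, S reached 434 at rank 225, shn 400 at rank 266 and cv-2 359 at rank 353. Mef2, which encodes a muscle transcription factor, had 387 at rank 295 in a 5′ UTR. The genes ush and shn each had 13 optimal summits assigned, more than the 4 of brk. Both are longer than brk, at 2L 476220 to 540560 for ush and 2R 11159086 to 11217394 for shn. Their counts are not given per length of sequence.

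For genes without an optimal summit, the closest one is by definition nearest to a start of another gene, and 4 of these are listed here. The closest optimal summit to zen, 5468 bp from its start, had a signal of 277 and was at the promoter of bcd, which encodes the anterior morphogen Bicoid. The closest to rho, 15669 bp away with 185, was in an intron of stet, a rhomboid-family gene. The closest to pnr, 14954 bp away with 105, had starts of IKKbeta and lncRNA:CR45212 nearest, and that to sna, 20756 bp away with 225, the start of lace.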
